A study of Mus musculus with 27 samples.

Results

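Notch signalling genes were followed through the conversion of mouse embryonic stem cells into gonadal progenitors and Sertoli-like cells. The 10 genes are the receptors Notch1, Notch2, Notch3 and Notch4, the ligands Jag1, Jag2 and Dll4, and the targets Hey1, Hey2 and Heyl. They were chosen by symbol, matched to the Ensembl identifiers of the deposited gene tables, and are 10 of the 48795 genes in each table. All 10 passed the filter on low counts, which kept 20839 genes for testing. Every library was made from cells of 1 clone, clone 7 of an XY line from an F1 cross of C57BL/6 and CBA, which carried Tesco-CFP, a cyan fluorescent reporter of the testis enhancer of Sox9, and R26-rtTA, the doxycycline-dependent activator. Bulk RNA was sequenced in 27 libraries, 3 in each of 9 groups.

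The first group, ESC, held embryonic stem cells passaged in 20% serum replacement with 1000 U/ml LIF after culture in 2i/LIF. EpiSC, the epiblast-like cells, had spent 60 h in 12 ng/ml bFGF, 20 ng/ml activin A and 1% serum replacement. M, early mesoderm, followed after 36 h in 20 ng/ml bFGF, 10 ng/ml BMP4 and 10 μM of the PI3 kinase inhibitor LY294002. The 5 intermediate mesoderm (IM) media were applied for 3.5 days and all held 5 ng/ml bFGF and 20 ng/ml BMP4. IM1 held nothing more, and IM2 to IM5 also held 100 nM retinoic acid. Activin A at 10 ng/ml was present in IM2 and IM5. The GSK3 inhibitor CHIR99021 at 0.3 μM was present in IM4 and IM5. The iSLC group was derived from IM3 cells that received Nr5a1 and Dmrt1 by lentivirus with doxycycline. It was sorted for CFP after 4 days in another medium, which held activin A at a higher dose than IM2 and IM5. EGF, FSH, FGF9, prostaglandin D2 and testosterone were also present. Before that medium the cells had been split and kept with the virus. The transgenes, the infection, the medium, the added time in culture and the sort therefore cannot be told apart. The labels do not say whether replicates were separate differentiations, so p-values measure only the spread between these libraries.

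In the Notch pathway a ligand on the surface of a cell binds a receptor on its neighbour, and the receptor is then cut by ADAM proteases and by γ-secretase. The released intracellular domain enters the nucleus, joins the DNA-binding protein RBPJ and a Mastermind coactivator, and switches on targets such as the Hes and Hey repressors. Notch4, Dll4, Hey1 and Hey2 are known from vessels, Notch3 and Heyl from the smooth muscle and pericytes around them, and Hey1 and Hey2 also from the heart. In the fetal testis the pathway is known for holding back the progenitors of Leydig cells.

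The letters GTGGGAA are the core that RBPJ recognises, and they were searched on both strands in RefSeq promoter windows of GRCm38.p6 that run from 250 bases before the gene start to 50 after it. Windows were listed for 8 of the 10 genes, all but Hey1 and Heyl. Hey2 was the only member of the 8 with a match, and its window held 2, in opposite orientations. At least 1 match was present in 2097 of all 32851 windows (6.38%) and at least 2 in 84 (0.256%). The Hey2 window, chr10:30842734-30843033 on the minus strand, is printed because it is the only member promoter with these letters, with both matches in capitals.
Hey2 promoter: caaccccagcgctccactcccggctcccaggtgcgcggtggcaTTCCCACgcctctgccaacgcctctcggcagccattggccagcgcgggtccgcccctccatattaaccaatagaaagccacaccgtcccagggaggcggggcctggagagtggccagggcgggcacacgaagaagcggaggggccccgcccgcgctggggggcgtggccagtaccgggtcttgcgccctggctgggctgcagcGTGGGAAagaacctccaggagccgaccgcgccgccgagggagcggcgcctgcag

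Among 30 other Notch pathway genes with a window, 6 held a match, and only Hes5, a classical Notch target, held 2. The matches of Hey2 and Hes5 are set beside that of Lfng, a glycosyltransferase gene described further on, with 8 bases on each side and the match in capitals.
Hey2, first base of the match at -207: cggtggcaTTCCCACgcctctgc
Hey2, first base of the match at -4: gctgcagcGTGGGAAagaacctc
Hes5, first base of the match at -226: cgagcgcgTTCCCACagcccgga
Hes5, first base of the match at -83: cgccgagtGTGGGAAcggccgcg
Lfng, first base of the match at -109: tatcccacGTGGGAAggagagat
A match is a string of letters and not a bound site. The levels of the matched genes differed widely, with Hey2 between 0.24 and 9.83 TPM over the group means and Hes5 between 0.01 and 0.41.

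Depth ranged from 35923040 to 84876603 expected counts per library. Nr5a1 averaged 93.8 TPM and Dmrt1 213 in iSLC, against at most 0.13 and 1.0 in the IM groups. The Sertoli list (5 genes) summed to 31.2 to 35.2 TPM in iSLC and 43.7 to 52.5 in IM3, with 0 called higher and 0 lower. Sox9 made up most of the sum, at 24.8 TPM in iSLC and 40.04 in IM3. Amh, a hormone that fetal Sertoli cells secrete, stood at 0.56 TPM in iSLC and 0.44 in IM3. Dhh stood at 1.86 and 0.7, Aard at 4.23 and 2.26, and Cst9 at 1.5 and 4.41. The intermediate mesoderm list (Osr1, Pax2, Lhx1 and Pax8) summed to 1.3 to 1.91 TPM in IM3, against 50.4 to 61.7 in M, with 1 of the 4 called lower. That gene was Lhx1, which averaged 56.5 TPM in M and made up most of the sum there. In IM3 the means were 1.11 TPM for Osr1, 0.44 for Lhx1, 0.04 for Pax2 and 0.02 for Pax8. Osr1 had stood at 0.2 in M, and its rise of 2.27 on the log2 scale (adjusted p = 3.3e-08, edgeR) was not called. The genital ridge list summed to 494.9 to 533.1 TPM in IM3. The Sertoli genes were named here after their values were seen. The libraries also fell into 2 sets by 6 genes of red blood cells: 12 libraries of ESC, M, IM3 and IM4 held 4.02 to 27.6 CPM (counts scaled to library size), and 15 libraries of the groups EpiSC, iSLC, IM1, IM2 and IM5 held 0.37 to 1.39. The sets also differed in how counts changed with the GC content of genes, from -0.46 to 0.06 against -0.10 to 0.48 on the log2 scale. IM3 vs M, IM4 vs IM3 and IM5 vs IM2 lay within a set, and in every other comparison the set and the groups cannot be told apart. Calls that an offset for GC content changed are given with that value below. In bulk RNA, fewer cells of a type and less RNA per cell cannot be told apart.

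**Figure D1:**
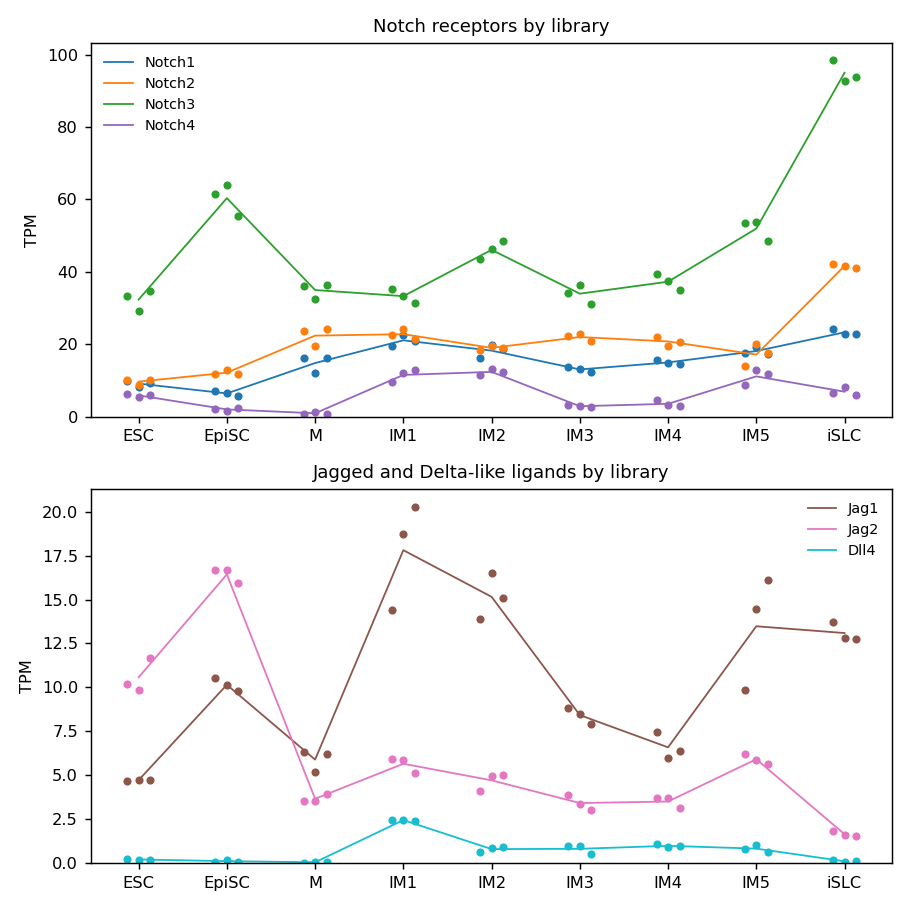
TPM (transcript abundance per length, scaled to the same total in every library) of the 4 receptors (top) and 3 ligands (bottom) in each of the 27 libraries, with points for libraries and lines through the means of the 3 libraries of each group. Notch3 was the highest receptor in every library and reached 92.67 to 98.44 TPM in iSLC, and Jag1 passed Jag2 from M onwards.

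Notch3 (ENSMUSG00000038146, chr17:32120820-32166852, minus strand) was the most abundant receptor in all 27 libraries on the TPM scale, which divides by transcript length and allows genes to be compared. Its level was 29.2 to 34.64 TPM in ESC and 55.57 to 64.1 in EpiSC. It then stood at 32.47 to 36.32 in M, 31.39 to 35.26 in IM1 and 31.25 to 36.44 in IM3. The ranges of ESC, M, IM1, IM3 and IM4 ran into each other along the order of means, and EpiSC lay above all of them. With activin A the level was 43.64, 46.22 and 48.4 TPM in IM2 and 53.6, 53.71 and 48.58 in IM5. The difference of IM3 and IM4 from IM1, IM2 and IM5 together changed direction with an offset for GC content, as given below. The iSLC libraries, at 98.44, 92.67 and 93.94 TPM, lay above every other library. Notch3 rose from IM3 to iSLC by 1.49 on the log2 scale (SE 0.07, adjusted p = 6.1e-17, edgeR's quasi-likelihood test). Its share of the summed receptor TPM was lowest in IM1, at 37.6% ± 2.5 (SD, n = 3), and highest in EpiSC, at 74.5% ± 0.85. In iSLC it made up 56.9% ± 0.76.

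Notch4 (ENSMUSG00000015468, chr17:34564268-34588503, plus strand) varied most among the receptors, 13.2-fold between the highest and lowest group mean. ESC held 6.26, 5.49 and 5.89 TPM and EpiSC 2.15, 1.61 and 2.27. M was lowest, at 0.83, 1.17 and 0.82 TPM. The IM media fell into a low pair, IM3 at 2.54 to 3.14 and IM4 at 3.0 to 4.54 TPM, and a high set, IM1 at 9.69 to 12.88, IM2 at 11.59 to 13.3 and IM5 at 8.77 to 12.86. No library of the low pair reached the high set. Notch4 fell from ESC to EpiSC by 2.19 on the log2 scale (SE 0.09, adjusted p = 5.3e-17, edgeR) and rose from M to IM3 by 1.40 (SE 0.10, adjusted p = 4.0e-12). The iSLC libraries stood at 6.64, 8.1 and 5.97 TPM, all above IM3 and below the high set. That rise over IM3, 1.25 (SE 0.09, adjusted p = 9.9e-13), came to 0.68 with an offset for GC content and was then under the 2-fold minimum. The effective length of Notch4 ran from 2888 bases in EpiSC replicate 3 to 6372 in M replicate 3, so TPM and counts differed. By group means iSLC lay above ESC in TPM (6.90 and 5.88) and below it in normalised counts (1142 and 1361).

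The summed level of the 15 endothelial marker genes, like Notch4, was lower in IM3 and IM4 than in the other media. It was 410.3 to 419.8 TPM in IM1, 245.0 to 268.9 in IM2, 266.2 to 276.6 in IM5, 187.8 to 222.9 in IM3 and 202.9 to 214.6 in IM4. All 15 had a mean of at least 1 TPM in each IM group. Their single genes did not all follow the sum. In IM3 and IM4 against IM1, IM2 and IM5, 7 of the 15 were called lower and none higher, and Tek, a receptor of endothelial cells, was at 0.87 on the log2 scale, with means of 26.8 and 30.6 TPM in IM3 and IM4 and 11.8 to 17.8 in the others. Cldn5, a junction gene, was at -0.01 there and Emcn, a surface protein of vessels, at 0.16. In iSLC, where Notch4 was higher than in IM3, the sum was 69.9 to 76.8 TPM with 6 of 15 genes at 1 TPM or more. Of the 15, 13 were called lower in iSLC than in IM3. Emcn was called higher, from a mean of 2.33 TPM in IM3 to 24.98 in iSLC (3.39 on the log2 scale), and Flt1, a receptor of VEGF, stood at 4.44 and 7.35 TPM (0.71, under the 2-fold minimum). Tie1 and Cldn5 were lowest, at 0.06 TPM in iSLC. These 5 genes were named after their values were seen. The part of endothelial cells in the Notch4 levels was not tested.

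Notch1 (ENSMUSG00000026923, chr2:26457903-26516663, minus strand) and Notch2 (ENSMUSG00000027878, chr3:98013527-98150361, plus strand) are the most widely expressed receptors in embryos. Notch1 held 5.83 to 7.01 TPM in EpiSC and 12.03 to 16.22 in M, and rose between them by 1.19 on the log2 scale (SE 0.08, adjusted p = 2.9e-13, edgeR). It was highest in iSLC, at 22.83 to 24.24 TPM, just above the IM1 libraries at 19.6 to 22.68. In normalised counts iSLC (6947 to 7392) and IM1 (6282 to 7382) overlapped. Notch2 was between 17.2 and 22.8 TPM in the means of M and all IM groups, and M, IM1, IM3 and IM4 overlapped. In iSLC Notch2 reached 42.18, 41.72 and 41.05 TPM, above every other library. Its difference from IM3 was 0.92 on the log2 scale (SE 0.07, adjusted p = 2.6e-12), under the 2-fold minimum. The 4 receptors together summed to 57.1 ± 4.6 TPM (SD, n = 3) in ESC and 166.9 ± 4.1 in iSLC, the lowest and highest of the groups. The annotation places 9.76% of Notch1 exon bases, 6.03% of Notch3 and 5.56% of Dll4 opposite an antisense gene, and 5.02% of Notch2 in a gene on the same strand. Whether counting used the strand is not given in the sources used here, so reads in those bases cannot be assigned with certainty.

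Jag1 (ENSMUSG00000027276, chr2:137081456-137116644, minus strand) and Jag2 (ENSMUSG00000002799, chr12:112907819-112929776, minus strand), the Jagged ligands, changed places along the protocol. Jag2 led in ESC, at 10.17, 9.87 and 11.67 TPM against 4.65, 4.74 and 4.75 for Jag1. It led again in EpiSC, at 16.66, 16.71 and 15.93 against 10.54, 10.13 and 9.77. In M Jag2 stood at 3.53, 3.51 and 3.92 TPM and Jag1 at 6.3, 5.15 and 6.2, and from there Jag1 was above Jag2 in every library. Jag2 fell from EpiSC to M by 2.23 on the log2 scale (SE 0.10, adjusted p = 3.6e-17, edgeR). Jag2 was lowest in iSLC, at 1.81, 1.58 and 1.52 TPM, below every other library. That fall from IM3, -1.05 (SE 0.11, adjusted p = 2.2e-09), went under the 2-fold minimum without iSLC replicate 3 (-0.998) or IM3 replicate 1 (-0.95). The share of Jag1 in the summed TPM of the 3 ligands went from 30.5% in ESC to 61.4% in M and 88.4% in iSLC.

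Among the IM media Jag1 was highest without retinoic acid or with activin A. IM1 held 14.41, 18.74 and 20.29 TPM, IM2 13.9, 16.5 and 15.07, and IM5 9.87, 14.45 and 16.12. IM3 held 8.83, 8.51 and 7.92 TPM and IM4 7.44, 5.95 and 6.36, so no library of IM3 or IM4 reached the others. The spread was wide in IM1 and IM5, where the first replicate lay lowest. Jag1 was lower in IM3 than in IM1 on the log2 scale (-1.14, SE 0.12, adjusted p = 7.3e-09, edgeR).

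Dll4 (ENSMUSG00000027314, chr2:119325784-119335962, plus strand), the ligand of sprouting endothelium, was the scarcest of the 3 ligands among the 10 genes. It lay at 0.02 to 0.24 TPM in ESC, EpiSC and M, where libraries held 2 to 27 expected counts. IM1 held 2.45, 2.46 and 2.41 TPM, above every other library. In TPM IM2 to IM5 overlapped, at 0.5 to 1.06, and iSLC was at 0.14, 0.05 and 0.09 TPM. In normalised counts, the scale that was tested, IM3 (61.0 to 72.4) lay below IM2 (78.3 to 107.7), IM5 (81.5 to 112.9) and IM4 (114.2 to 129.1). The difference of IM4 from IM3 was 0.88 on the log2 scale (SE 0.20, adjusted p = 0.014, edgeR), which was not called. In expected counts IM1 held 359 to 450 per library and IM3 42 to 69. The fitted difference of IM3 from IM1 was -2.26 on the log2 scale (SE 0.19, adjusted p = 1.7e-10, edgeR), and it was not called because the mean normalised count of Dll4 over all libraries was below 100. RSEM gave Dll4 an effective length of 2250 and 1893 bases in IM3 replicates 1 and 2 and of 3513 in replicate 3, so equal counts became unequal TPM. With an offset for effective length the difference was -1.71. The endothelial list was also highest in IM1, with 11 of 15 genes lower in IM3 than in IM1. Its part in the Dll4 level was not tested.

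**Figure D2:**
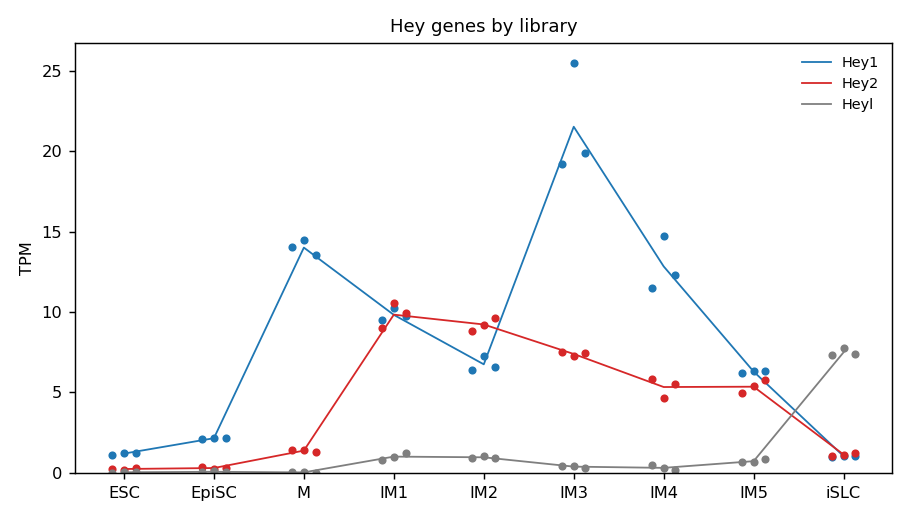
TPM of Hey1, Hey2 and Heyl in each of the 27 libraries, with points for libraries and lines through the group means of 3 libraries. Hey1 was highest in IM3 (19.22 to 25.46 TPM) and near 1 TPM in iSLC, where Heyl was at 7.35 to 7.76.

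Hey1 (ENSMUSG00000040289, chr3:8663359-8667256, minus strand) rose in steps from ESC to mesoderm. ESC held 1.14, 1.23 and 1.23 TPM, EpiSC 2.13, 2.2 and 2.14, and M 14.01, 14.47 and 13.52, with no overlap between the 3 stages. From ESC to EpiSC the difference was 0.91 on the log2 scale (SE 0.14, adjusted p = 2.4e-06, edgeR), under the 2-fold minimum. From EpiSC to M it rose by 2.65 on the log2 scale (SE 0.11, adjusted p = 2.3e-17, edgeR). IM3 was the highest of all groups, at 19.22, 25.46 and 19.85 TPM. IM4 held 11.49, 14.69 and 12.31 TPM, IM1 9.48, 10.22 and 9.76, IM2 6.41, 7.25 and 6.58, and IM5 6.2, 6.34 and 6.35. In TPM all 5 media were separated in that order with no overlap, and IM4 overlapped only M. In normalised counts, the scale that was tested, IM2 (479.4 to 551.7) and IM5 (466.2 to 519.1) overlapped. In iSLC it fell to 1.0, 1.05 and 1.06 TPM, below every other library. The fall from IM3 was -4.37 on the log2 scale (SE 0.12, adjusted p = 4.5e-21).

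Hey2 (ENSMUSG00000019789, chr10:30832359-30842801, minus strand), the gene with the promoter shown above, rose in 2 steps. It was at 0.17 to 0.35 TPM in ESC and EpiSC, at 1.45, 1.41 and 1.3 in M, and at 7.49, 7.25 and 7.43 in IM3. The rise from EpiSC to M was 2.12 on the log2 scale (SE 0.15, adjusted p = 9.5e-13, edgeR), and that from M to IM3 was 2.22 (SE 0.11, adjusted p = 5.8e-16). The former was not called when the mean count of at least 100 was taken over those 6 libraries alone. IM1 (8.99 to 10.55 TPM) and IM2 (8.83 to 9.62) overlapped and were the highest, and IM4 (4.64 to 5.82) and IM5 (4.94 to 5.75) overlapped below IM3. In iSLC Hey2 fell to 1.05, 1.11 and 1.26 TPM, a change from IM3 of -2.68 (SE 0.11, adjusted p = 1.1e-17).

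Heyl (ENSMUSG00000032744, chr4:123233556-123249875, plus strand) went the other way in the last step. ESC, EpiSC and M libraries held 2 to 11 expected counts, or at most 0.14 TPM. IM3 held 0.4, 0.46 and 0.31 TPM and IM4 0.47, 0.28 and 0.19, while IM1, IM2 and IM5 held 0.65 to 1.25. In iSLC it reached 7.35, 7.76 and 7.38 TPM, above every other library. The rise from IM3 was 4.19 on the log2 scale (SE 0.20, adjusted p = 2.1e-16, edgeR).

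The family total therefore changed hands. Hey1 made up 90.8% ± 0.36 (SD, n = 3) of the summed Hey TPM in M, and 73.2% ± 3.1 in IM3. In IM1 Hey1 and Hey2 each made up 47.6% of it. In iSLC Heyl made up 77.5% ± 1.2, Hey2 11.8% and Hey1 10.7%. The summed level went from 1.48 TPM in ESC to 29.3 in IM3 and 9.67 in iSLC.

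**Figure D3:**
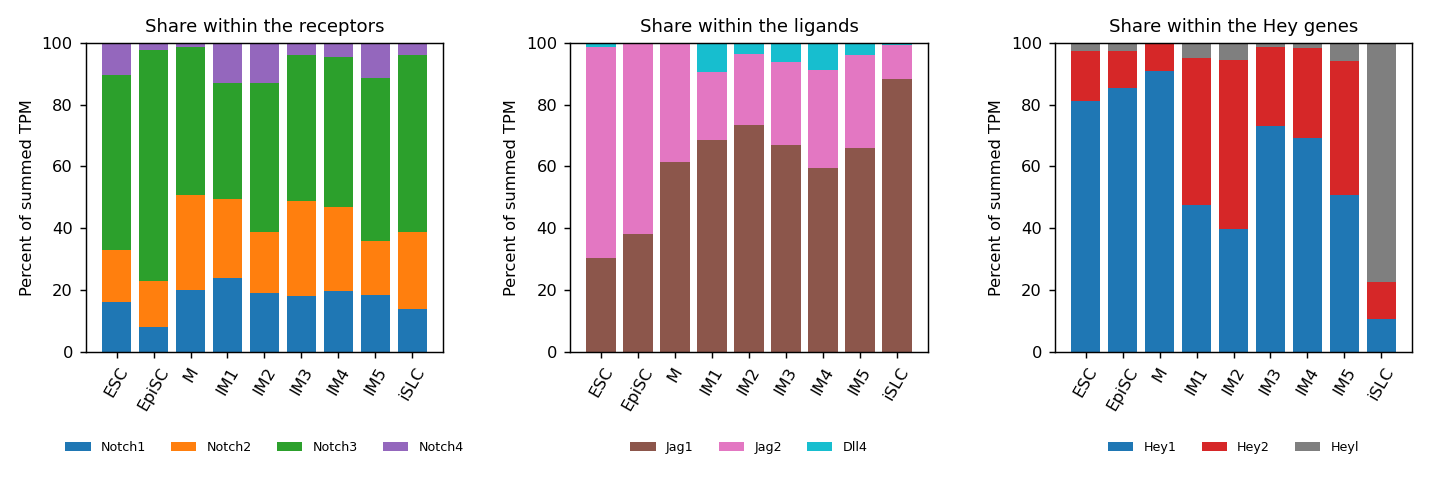
Mean share of each gene in the summed TPM of its family (percent, 3 libraries per group), for the receptors (left), ligands (middle) and Hey genes (right). Notch3 was the largest part of the receptors in every group, Jag1 replaced Jag2 as the largest of Jag1, Jag2 and Dll4 from M on, and Heyl took 77.5% of the Hey total in iSLC.

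The stage steps were compared by calls, for which a gene had to show an adjusted p no higher than 0.01, a 2-fold difference or more, and a mean normalised count of 100 or more. From ESC to EpiSC 2 of the 10 genes were called, against 8.07% of all genes tested (3.75% higher and 4.32% lower): Jag1 rose by 1.09 (SE 0.12, adjusted p = 2.0e-08, edgeR) and Notch4 fell. The median log2 fold change of the 10 was 0.38, and that of all genes was -0.003. From EpiSC to M 4 were called, against 14.5% of all genes (6.79% higher and 7.72% lower): Notch1, Hey1 and Hey2 rose and Jag2 fell. The median was -0.38, against -0.06 for all genes. From M to IM3 Notch4 and Hey2 rose, 2 calls against 14.9% of all genes (9.26% higher and 5.66% lower). Dll4 (3.64, SE 0.31) and Heyl (3.36, SE 0.36) also passed the p and fold limits there but not the count minimum, and 4 genes were called without it, against 25.9% of all genes. This step lay within a set of libraries by red blood cell genes. The endothelial list summed to between 137.8 and 148.5 TPM in M and between 187.8 and 222.9 in IM3, with 10 of 15 genes called higher and 2 lower, and 5 of 8 cardiac genes were called higher. The mural and smooth muscle list summed to between 173.8 and 189.4 TPM in M and between 1462 and 1754 in IM3, with 6 of 8 genes called higher. The part of these cell types was not tested.

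From IM3 to iSLC 6 of the 10 genes were called, against 19.2% of all genes tested (10.3% higher and 8.92% lower). In this step the 2 transgenes, the infection, the new medium, the added time in culture and the sort all differed. Notch3, Notch4 and Heyl rose, and Hey1, Hey2 and Jag2 fell. All 10 had an unadjusted p under 0.05, a limit at which the share of all genes is not given. With an adjusted p of at most 0.01, the count minimum and no fold minimum, 50.4% of all genes were called. Dll4 (-2.69, SE 0.26) passed the p and fold limits and not the count minimum. In the same step 13 of 15 endothelial genes were called lower and 1 higher. The 8 mural and smooth muscle genes summed to 3316 to 3402 TPM in iSLC and 1462 to 1754 in IM3. Of these, 3 were called higher (Myh11, Cspg4 and Myl9) and 1 lower (Rgs5, from 26.45 TPM in IM3 to 7.16 in iSLC). Acta2 and Tagln, the largest in iSLC at 1652 and 1048 TPM, were under the 2-fold minimum. The annotation places 67.86% of Tagln exon bases opposite antisense genes. These single genes were named after their values were seen. In the cardiac list 4 of 8 genes were called lower. The part of these cell types in the changes was not tested.

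**Figure D4:**
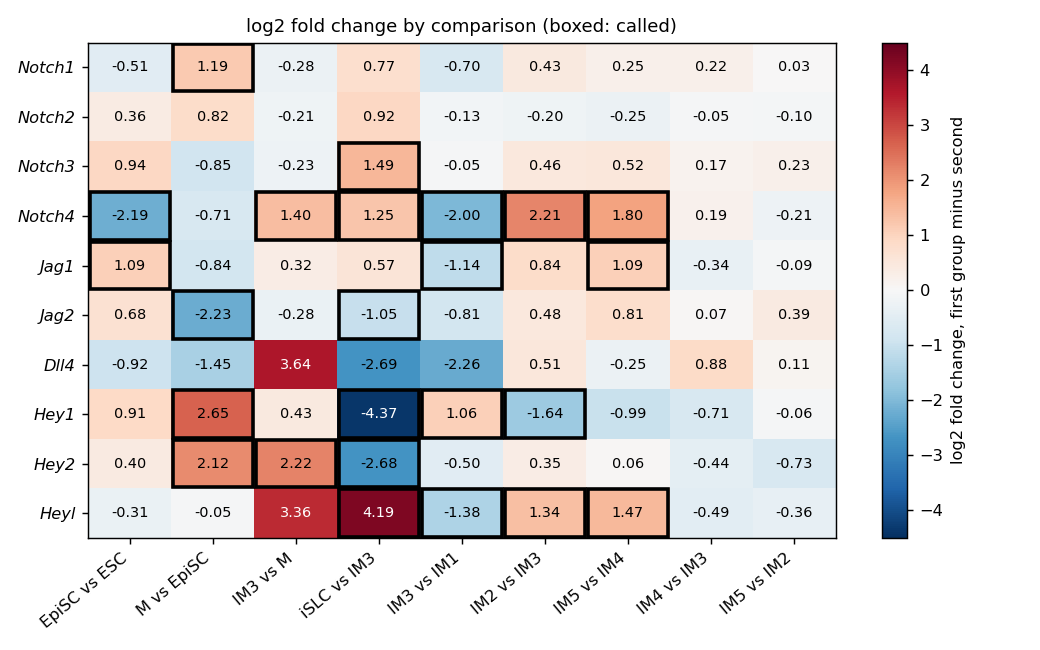
Fitted log2 fold change (first group minus second, normalised counts, 3 libraries per group) of the 10 genes in 4 stage steps and 5 comparisons of IM media, with black boxes around called changes. Boxes crowd the iSLC vs IM3 column, with Heyl at 4.19 and Hey1 at -4.37, and none stands in the 2 columns on CHIR99021.

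Retinoic acid was the only component of the medium that differed between IM3 and IM1. These groups also lay in different sets of libraries by red blood cell genes, so retinoic acid and the set cannot be told apart. Hey1 was higher in IM3 by 1.06 (SE 0.10, adjusted p = 1.0e-09, edgeR), and Notch4 (-2.00, SE 0.09), Jag1 and Heyl (-1.38, SE 0.21) were lower. These were 4 calls of 10, against 6.34% of all genes tested (2.62% higher and 3.72% lower), and the median of the 10 was -0.76 against 0.0 for all genes. Heyl met the count minimum over all libraries only through iSLC (mean normalised count 1059, against 150.5 in IM1 and 57.9 in IM3). Hey1 went under the 2-fold minimum without IM3 replicate 2, at 0.91. The part of the endothelial list, lower in IM3 by 11 of 15 genes, of the mural and smooth muscle list, lower by 3 of 8, and of the cardiac list, higher by 4 of 8, was not tested.

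Activin A was added in IM2 over IM3, and in IM5 over IM4. In both comparisons the set of libraries by red blood cell genes differed too, so activin A and the set cannot be told apart. In IM2 Notch4 rose by 2.21 (SE 0.09, adjusted p = 4.8e-16, edgeR), Heyl rose by 1.34 (SE 0.21, adjusted p = 1.0e-05), and Hey1 fell by 1.64 (SE 0.10, adjusted p = 1.1e-12). These were 3 calls, against 3.8% of all genes (2.46% higher and 1.34% lower). In IM5, with CHIR99021 in both media, Notch4 rose by 1.80 (SE 0.09, adjusted p = 5.8e-15), Heyl by 1.47 (SE 0.22, adjusted p = 3.8e-06) and Jag1 by 1.09 (SE 0.12, adjusted p = 3.3e-08), 3 calls against 4.09% of all genes (2.63% higher and 1.46% lower). Hey1 was at -0.99 there (SE 0.10, adjusted p = 1.0e-08), just under the 2-fold minimum, and past it at -1.09 with the GC offset. Jag1 went under it without IM5 replicate 3, at 0.95. Heyl was not called in either comparison when the mean count was taken over the compared libraries alone. IM2 vs IM3, IM3 vs IM1 and IM4 vs IM3 share the IM3 libraries. In IM2 4 of 15 endothelial and 2 of 8 mural and smooth muscle genes were called higher than in IM3, and 4 of 8 cardiac genes lower. In IM5 6 endothelial genes were called higher than in IM4 and 1 lower, 1 mural and smooth muscle gene higher, and 4 cardiac genes lower. The part of these lists was not tested.

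CHIR99021 was added in IM4 over IM3 and in IM5 over IM2. None of the 10 genes was called in IM4 vs IM3 by edgeR, against 0.101% of all genes (0% higher and 0.101% lower). Without the fold minimum 1 was called, against 0.945% of all genes. Of the 10, 6 had an unadjusted p under 0.05, and DESeq2 gave 3 an adjusted p of at most 0.01. The shares of all genes at these last limits are not given, here or for the next comparison. Hey1 stood at -0.71 (SE 0.10, adjusted p = 8.6e-05), with no overlap between the groups. None was called in IM5 vs IM2 either, against 0.235% of all genes (0.0432% higher and 0.192% lower). Without the fold minimum 2 were called, against 3.88% of all genes. An unadjusted p under 0.05 was found for 4, and an adjusted p of at most 0.01 by DESeq2 for 2. Hey2 stood at -0.73 (SE 0.09, adjusted p = 8.5e-06). Cardiac genes summed to 319.3 to 598.6 TPM in IM3 and 160.2 to 198.1 in IM4, with 4 of 8 called lower in each of the 2 comparisons. Their part in the Hey levels was not tested.

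The change of Hey1 with CHIR99021 differed between media with and without activin A. The media with activin A (IM2, IM5) all belong to one set of libraries by red blood cell genes and those without it (IM3, IM4) to the other, so activin A and the set cannot be told apart here. The change was -0.06 in IM5 vs IM2 and -0.71 in IM4 vs IM3, a difference of 0.65 (SE 0.14, adjusted p = 0.029, edgeR interaction term). It was the only call of 10 at an adjusted p of at most 0.05, against 0.624% of all genes (0.221% with a positive difference and 0.403% with a negative). The adjusted p passed 0.05 when any of 7 of the 12 libraries was left out: IM2 replicates 1 and 3, IM3 replicate 2, IM4 replicates 1 and 3, and IM5 replicates 1 and 3. The difference was then between 0.51 and 0.66. Notch4 had a difference of -0.40 (SE 0.12, adjusted p = 0.17), which was -0.53 and called with the GC offset.

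IM3 and IM4 together were also set against IM1, IM2 and IM5, a contrast that the study drew and that coincides with the 2 sets of libraries. Hey1 was higher by 1.11 (SE 0.06, adjusted p = 4.3e-14, edgeR), and Notch4 (-1.97, SE 0.06), Heyl (-1.48, SE 0.14) and Jag1 (-1.08, SE 0.08) were lower. These were 4 calls, against 4.21% of all genes (1.56% higher and 2.65% lower). Heyl again met the count minimum over all libraries only through iSLC, where its mean normalised count was 1059. In this contrast its means were 49.7 in IM3 and IM4 and 137.3 in the other media. Notch3 was at -0.32 (SE 0.04, adjusted p = 4.2e-07), and at 0.04 with the offset for GC content, so its direction rested on that choice. Over all 9 groups each of the 10 genes passed an adjusted p of 0.05, as did 96.4% of all genes.

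**Figure D5:**
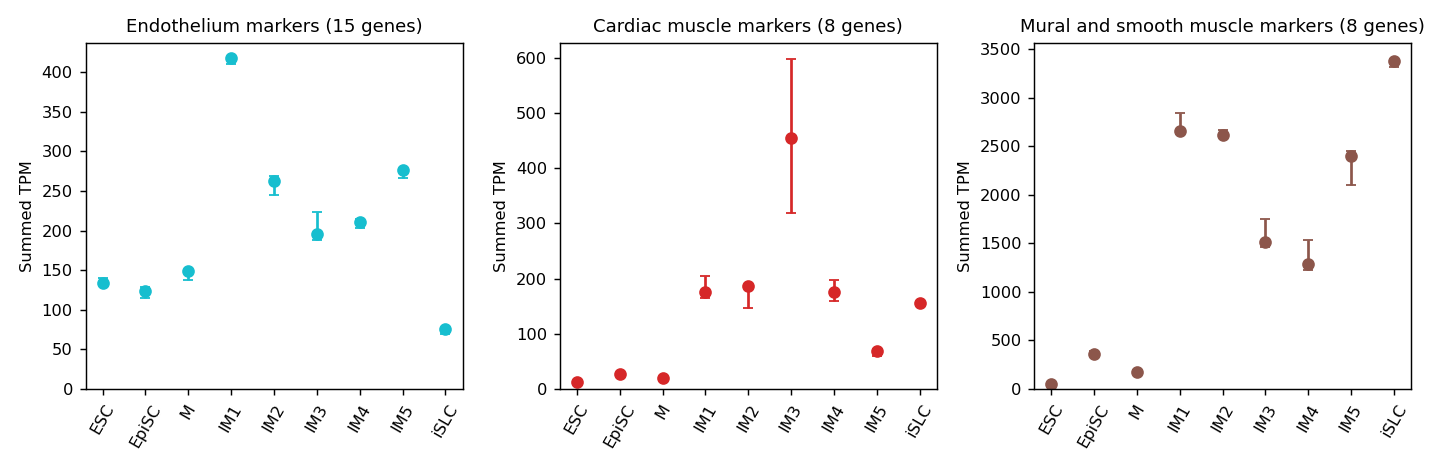
Summed TPM of the endothelial (15 genes), cardiac (8) and mural and smooth muscle (8) marker lists by group, with points at the median and bars from the lowest to the highest of 3 libraries. The endothelial sum peaked in IM1 at 417.8 TPM, the cardiac sum in IM3 at 455.0, and the mural sum in iSLC at 3377.

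The rest of the pathway was followed in 37 genes fixed by role. All 37 passed the low-count filter. Other ligands changed with stage. Dll3 and Dll1, ligands of presomitic mesoderm, averaged 35.5 and 30.7 TPM in M and 0.25 and 0.59 in IM3, log2 fold changes of -7.64 and -5.87 (adjusted p = 4.4e-23 and 1.4e-21, edgeR). An antisense gene lies opposite 20.6% of Dll1 exon bases. Dll3 had risen earlier, from ESC to EpiSC (3.14), and Dll1 from EpiSC to M (2.67). Dlk1, a Delta-like protein without the usual receptor-binding domain, went from 18.2 TPM in M to 2267 in IM3, a rise of 6.75 (SE 0.12, adjusted p = 4.4e-25).

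Nrarp, a target whose product feeds back on the pathway, had a pattern unlike that of Hey1. The annotation places 79.4% of its exon bases opposite an antisense gene, Gm38287, so with the use of strand not given its reads cannot be assigned with certainty. It averaged 18.8 TPM in M, 11.5 in IM1, 5.18 in IM2, 5.54 in IM5, 0.58 in IM3, 0.89 in IM4 and 0.24 in iSLC. It fell from M to IM3 by 5.20 on the log2 scale (SE 0.19, adjusted p = 1.1e-18, edgeR), and was lower in IM3 than in IM1 (-4.39, SE 0.19, adjusted p = 3.0e-16), where Hey1 was higher. Nrarp was higher by 3.18 in IM2 than in IM3 and by 2.70 in IM5 than in IM4, the media with activin A against those without.

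In iSLC vs IM3 8 of the 37 genes (21.6%) were called, against 19.2% of all genes, and all 8 rose, against 10.3% of all genes called higher, the largest being Lfng (3.02, SE 0.14), a glycosyltransferase that tunes receptors, the ubiquitin ligase Dtx1 (3.01, SE 0.16) and Mib2 (2.98), a ligase that acts on ligands. Lfng averaged 2.15 TPM in IM3 and 15.4 in iSLC. The median of the 37 was 0.40, against 0.0 for all genes. Of the 9 protease and γ-secretase genes, none was called in this step. In IM3 vs M 11 of the 37 (29.7%) were called, 4 higher and 7 lower, against 14.9% of all genes, the other named rises being Maml2 (3.10), a Mastermind coactivator, and Furin (2.02), the convertase that cuts receptors on their way to the surface. In M vs EpiSC 8 (21.6%) were called, 5 higher and 3 lower, against 14.5% of all genes. The largest were Aph1b (3.29), a γ-secretase subunit, Dll1, and Maml3 (1.88) among the rises, and Mfng (-4.46), a relative of Lfng, Dtx1 (-4.41) and Dtx4 (-2.72) among the falls.

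In EpiSC vs ESC 7 of the 37 (18.9%) were called, 4 higher and 3 lower, against 8.07% of all genes. Besides Dll3, Nrarp (2.32) and Maml3 (1.67) rose, and Maml2 (-2.00), Mib2 (-1.43) and Rbpj (-1.42), the DNA-binding partner, fell. In IM3 vs IM1 6 (16.2%) were called, against 6.34% of all genes, with Maml2 (1.16) the only rise, and with Nrarp, Maml3 (-1.76) and Mfng (-1.64) the largest falls. In the comparisons with activin A added, 4 (10.8%) were called in IM2 vs IM3 and 4 in IM5 vs IM4, against 3.8% and 4.09% of all genes. All were higher, among them Numbl (1.16 and 1.20), a relative of the Notch inhibitor Numb. Maml3 was called in both (1.05 and 1.04), and Dtx4 was at 1.27 in the latter. The Numbl calls were lost with the GC offset, at 0.96 and 0.90, as was its call for IM3 and IM4 against the other media, at -0.96. CHIR99021 gave no call among the 37 by edgeR in either comparison, against 0.101% and 0.235% of all genes. An unadjusted p under 0.05 was found for 9 and 15, and an adjusted p of at most 0.01 by DESeq2 for 2 and 3. The shares of all genes at these last limits are not given. In IM3 and IM4 against the other media 4 of the 37 (10.8%) were lower and none higher, against 4.21% of all genes called, the largest being Nrarp (-3.32), Maml3 (-1.27) and Numbl (-1.21).

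The genes most like each member were sought by Pearson's r of the mean log2 CPM over the 9 groups, among 13447 genes, and are given as a description since the points share libraries. Dll4 was most like Icam2 (0.99), Esam (0.98) and Ppp4r1 (0.98). Heyl was most like Mpc2, Foxs1 and Cdkn2c (0.99 to 1.00), Hey2 like Slain2, Fam107b and Ywhab (0.99), and Hey1 like Acly, Gnai3 and Podxl (0.98). Jag2 was most like Mrpl38, Rasd2 and Rps4l (0.99), and Jag1 like Scand1, Bbc3 and Stk11 (0.94 to 0.95). Notch2 was most like Slit2, Kansl1l and AU040320 (0.98), and Notch1 like Gpatch2l, Frmd6 and Lonrf1 (0.97). Notch3 was most like Ncdn (0.96), Pacsin3 and Klf7 (both 0.93), and Notch4 like Pqlc1, Rab40c and Brsk1 (0.94 to 0.95).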

How the data were processed

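Bulk RNA-seq libraries (paired reads of 75 bases, 27 libraries) were processed by the authors before deposition. Reads were trimmed with cutadapt 1.9.1, aligned with STAR 2.5.2a to GRCm38 with Ensembl release 86, and quantified per gene with RSEM 1.3.0, which gave the deposited expected counts, not normalised between libraries. The TPM and FPKM values were computed by the authors with RSEM, per effective length and scaled to each library, and replicates were not pooled.

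Symbols were matched for 48349 of 48795 identifiers (99.962% of counts). Expected counts were rounded and tested with edgeR 4.0.16 (TMM, filterByExpr, quasi-likelihood, Benjamini-Hochberg adjustment over 20839 genes) in R 4.3.3, with all 27 libraries in a single fit. A call required an adjusted p up to 0.01, a 2-fold difference or more, and 100 or more normalised counts on average, both overall and in at least 1 compared group. The interaction and the test over 9 groups used an adjusted p of at most 0.05. The scripts were tested on simulated data. Means are given with SD and n = 3. No replicate pair agreed within counting noise (chi-square per degree of freedom 3.46 to 49.1).

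The 10 genes were always named, and of the other 37 pathway genes the 3 largest called rises and falls per comparison. The members, lists and rules were chosen with earlier results of these data known. Alternatives were the size factors of DESeq2, the DESeq2 1.42.0 test, no low-count filter, offsets for effective length and GC content, a replicate block, the compared groups alone, no count or fold minimum, and leaving out each library. GENCODE M21 coordinates on GRCm38 are given.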

Additional observations from a re-analysis of the deposited data

Results flagged for a closer look

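The change of Hey1 with CHIR99021 differed between media with and without activin A by a test of the difference itself. The log2 fold change was -0.06 with activin A (IM5 vs IM2) and -0.71 without (IM4 vs IM3), and their difference was 0.65 (SE 0.14, adjusted p = 0.029, edgeR interaction term, 3 libraries per group). The libraries of IM4 (11.49 to 14.69 TPM) and IM3 (19.22 to 25.46) did not overlap. Those of IM5 (6.2 to 6.35) and IM2 (6.41 to 7.25) were apart in TPM. In normalised counts IM5 (466.2 to 519.1) and IM2 (479.4 to 551.7) overlapped. DESeq2 gave the same difference an adjusted p of 0.0043. It passed 0.05 when any of 7 of the 12 libraries was left out in edgeR. IM3 and IM4 belong to the libraries with more red blood cell RNA, and IM2 and IM5 to those with less, so activin A and the set of libraries cannot be told apart in this difference.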

How the results depend on the processing

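Of 1678 values of member fold changes under the alternatives, 1627 kept their direction and side of the threshold, 16 were no longer called, 11 became called and 24 turned in direction, all of them uncalled. Without a fold minimum 7 members were called in EpiSC vs ESC (against 37.7% of all genes), 8 in M vs EpiSC (46.3%), 6 in IM3 vs M (45.5%), 7 in IM3 vs IM1 (34.5%), 1 in IM4 vs IM3 (0.945%), 2 in IM5 vs IM2 (3.88%), and 8 each in IM2 vs IM3 (26.1%), IM5 vs IM4 (31.8%) and IM3/4 vs IM1/2/5 (41.2%). Without a count minimum IM3 vs M had 4 (25.9%). The interaction had 2 calls with the GC offset, Notch4 (-0.53) joining Hey1, also 2 with the GC offset and replicate block, and 0 to 1 when single libraries were left out. Same-numbered libraries did not deviate together (mean r 0.0024), and the replicate block alone moved no count by over 1.5 times.

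Turned directions with the GC offset, and with the block added, were Heyl in M vs EpiSC (0.123, 0.1219), Notch3 in IM3 vs IM1 (0.3063, 0.3071), in IM3/4 vs IM1/2/5 (0.0422, 0.0424) and in the interaction (-0.0461, -0.0452), and Notch1 in IM5 vs IM2 (-0.038, -0.0374). With the offset for effective length it was Heyl in EpiSC vs ESC (0.1508). Ranges with a library left out crossed 0 for Heyl in EpiSC vs ESC (-0.5692 to 0.4171), M vs EpiSC (-0.8176 to 0.3741) and the interaction (-0.058 to 0.3312), Jag2 in IM4 vs IM3 (-0.0048 to 0.1497), Hey2 in IM5 vs IM4 (-0.0252 to 0.1132), Notch2 in the interaction (-0.1339 to 0.0552), and in IM5 vs IM2 for Notch1 (-0.0561 to 0.0945), Jag1 (-0.2371 to 0.0612) and Dll4 (-0.0017 to 0.2456). The share of Notch3 from expected counts, which do not divide by length, was 54.31% in ESC, 71.78% in EpiSC, 43.07% in M, 46.27% in IM2, 42.38% in IM3, 44.31% in IM4 and 52.78% in iSLC. The causes were not tested. Depth limits Heyl in ESC, EpiSC and M and Dll4 in M, at 2 to 11 expected counts.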

Other observations

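Dtx3, a relative of Dtx1, averaged 60.9 TPM in IM3 and 226.5 in iSLC. Adam10, the protease that makes the first activating cut, averaged 11.7 TPM in EpiSC, 31.8 in M and 88.8 in iSLC, and was not called in iSLC vs IM3. Hes1, a widely expressed target, averaged 18.8 TPM in ESC, 88.9 in M, 75.0 in IM1, 39.7 in IM3 and 31.5 in iSLC, so it was highest in M and not in IM3, where Hey1 was highest. These genes were chosen after their values were seen.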
